A study of Mus musculus with 8 samples.

Results

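The genes described here are 34 genes of the G2/M phase and mitosis, from cyclins and their kinase to the spindle, the kinetochore and cytokinesis. They were taken from the deposited annotated table by gene symbol, and each had 1 probe set, out of 30918 genes with values. RNA was measured in multipotent progenitors, sorted from bone marrow as LSK CD48- CD150- cells, on 8 Affymetrix arrays with 1 array per sample. The 4 Elektra arrays came from mice carrying Slfn2 elektra/elektra, a homozygous loss-of-function allele of a Schlafen family gene that is known to hold T cells in a resting state. The 4 wild-type samples were from littermates with 2 wild-type Slfn2 alleles. All mice had a C57Bl/6 background and were untreated, and ages are not stated. Each sample pooled the bones of 2 mice with the same genotype, whereas the series text speaks of 4 mice per genotype, so the number of animals per group is not settled. The mutation was present in all cells of the mice, not only in the sorted ones. The comparison asks whether loss of Slfn2 alters the division programme of these progenitors at steady state.

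Mitotic genes are switched on late in the cell cycle and are transcribed little in resting cells, so their summed RNA in a cell population follows the share of cells between S phase and division. Cyclins A and B activate Cdk1, the kinases of the Aurora, Polo and Bub families drive spindle assembly and its checkpoint, and Cdc20 with the anaphase-promoting complex ends mitosis by destroying cyclins and securin. Stem cells and early progenitors of the marrow are known for low cycling at steady state. In bulk RNA, fewer cells in G2 and M and less of a transcript per cell cannot be told apart.

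Many genes of this programme are known to share promoter elements. CCAAT boxes are bound by NF-Y, and the cell cycle genes homology region, with the core TTTGAA or TTCGAA, is bound by the MuvB complexes that hold these genes silent in resting cells and activate them in G2. RefSeq promoter windows of 300 bases (250 before and 50 after a transcript start, GRCm38.p6) were read with 1 window per gene, the outermost, and 28 of the 34 genes had one. The start used was the annotated gene start for 14 of these 28, against 73.4% of all genes with a window, so positions in the other windows are relative to another start. CCAAT on either strand was in 21 of the 28 (75%), against 38% of the 27025 genes with a window. TTTGAA or TTCGAA on either strand was in 22 (78.6%), against 19.5%, and both elements together were in 19 (67.9%), against 7.73%. At least 2 CCAAT copies were in 14 (50%), against 12.1%. Neighbouring matches of the 2 motifs were allowed to share letters. The G1/S and DNA replication genes, read the same way, held CCAAT in 18 of 28 windows (64.3%) and the homology region core in 6 (21.4%). The core was also frequent in other mitotic lists, at 20 of 32 further spindle and cytokinesis genes (62.5%), 15 of 29 further kinetochore genes (51.7%) and 8 of 16 cohesin, condensin and separase genes (50%). These are matches of letters in a window and show no binding.

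The stretches below run from 120 bases before to 20 after the start of the window used, 5′ to 3′ on the gene's strand, with the matched letters of both motifs in capitals (ATTGG is CCAAT on the other strand). Cyclin B2, Cdk1 and Cdc20 show the arrangement of CCAAT boxes with a homology region core. Ect2 has the widest genotype difference, and Ndc80 and Nuf2 are a pair whose values go together.
Ccnb2, chr9:70421535-70421674, minus strand: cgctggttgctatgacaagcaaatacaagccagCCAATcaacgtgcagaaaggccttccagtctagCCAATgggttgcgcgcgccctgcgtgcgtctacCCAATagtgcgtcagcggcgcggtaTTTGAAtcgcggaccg
Cdk1, chr10:69352893-69353032, minus strand: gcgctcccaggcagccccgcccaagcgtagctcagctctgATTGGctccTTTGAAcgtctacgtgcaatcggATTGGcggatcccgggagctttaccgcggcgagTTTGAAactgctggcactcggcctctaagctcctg
Cdc20, chr4:118437324-118437463, minus strand: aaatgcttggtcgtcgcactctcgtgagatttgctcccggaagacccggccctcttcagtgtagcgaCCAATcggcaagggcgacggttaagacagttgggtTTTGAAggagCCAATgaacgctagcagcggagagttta
Ect2, chr3:27153859-27153998, minus strand: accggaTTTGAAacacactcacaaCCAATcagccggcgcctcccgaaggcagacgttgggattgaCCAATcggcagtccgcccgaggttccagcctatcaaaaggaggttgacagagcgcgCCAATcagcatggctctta
Ndc80, chr17:71526838-71526977, minus strand: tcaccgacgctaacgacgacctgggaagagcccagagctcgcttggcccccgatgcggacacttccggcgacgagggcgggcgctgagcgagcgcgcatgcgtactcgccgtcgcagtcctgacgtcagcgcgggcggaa
Nuf2, chr1:169531445-169531584, minus strand: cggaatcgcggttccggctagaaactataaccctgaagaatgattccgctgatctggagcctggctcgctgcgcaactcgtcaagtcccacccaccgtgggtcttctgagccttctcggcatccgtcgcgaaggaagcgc
In the Ccnb2 stretch 3 CCAAT boxes precede 1 TTTGAA. Cdk1 has 2 CCAAT boxes and 2 TTTGAA cores, and Cdc20 has 2 and 1. The Ect2 stretch holds 3 CCAAT boxes and 1 TTTGAA. Neither motif is in the Ndc80 and Nuf2 stretches. In the full windows Ndc80 has 1 homology region core, 30 bases after the start, while Nuf2, Nusap1, Mad2l1 and Birc5 have neither motif. The median log2 change was 0.06 in the 22 genes with a homology region core and 0.13 in the 6 without, as a description.

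All values are log2 intensities as deposited, so a difference of 1 is a doubling. The median of an array was 2.02 to 2.13, and the lowest correlation of an array with another was 0.966. Elektra replicate 2 differed from the other 7 arrays: its upper quartile was 3.63 where theirs were 3.80 to 3.83, and it held the lowest value for 31.7% of the genes at or above the median level. Slfn2 itself was 2.13, 2.12, 1.99 and 2.18 in the Elektra arrays, against 2.06, 1.68, 2.44 and 2.16 in wild type, and this RNA level tells nothing of which allele a sample carries. Slfn2 lay at percentile 49.8 of all genes, close to the array medians, so it was dim in both genotypes. The sort marker gene Kit, the stem cell factor receptor, was bright at 8.97 ± 0.13 in Elektra, against 9.16 ± 0.09 in wild type (SD, n = 4 each, here and below). Ly6a, which encodes Sca-1, was bright at 9.27 ± 0.16 in Elektra, against 8.91 ± 0.36 in wild type. Cd34 was 8.40 ± 0.06 in Elektra, against 8.43 ± 0.18 in wild type. Cd48, whose protein the sort left out, was 4.01 ± 0.16 in Elektra, against 3.85 ± 0.36 in wild type, at percentile 75.4 of all genes. Slamf1, which encodes CD150, was 1.80 ± 0.35 in Elektra, against 1.66 ± 0.34 in wild type, at percentile 39. Flt3, a receptor gene of multipotent progenitors, averaged 7.09 ± 0.16 in the Elektra arrays and 7.43 ± 0.07 in the wild-type arrays. Its groups did not overlap (limma adjusted p = 0.884), which was so for 3.23% of all genes. All 34 genes had a mean at or above the median of all genes, from percentile 50.1 for Cdc25c to 95.5 for Mki67.

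No mitotic gene passed between genotypes. At an adjusted p of 0.05 limma called 0 of the 34 and 0 of all 30918 genes (0%), the adjusted p of the 34 running from 0.884 to 1.0. At an unadjusted p under 0.05 there were 2 of the 34, Ccna2, higher in Elektra, where 2.63% of all genes were, and Ect2, lower in Elektra, where 2.87% were. In both directions together these were 5.5% of all genes and 7.34% of those at or above the median level. The mean was higher in Elektra for 25 of the 34, against 53.9% of all genes and 45.7% of those at or above the median level. The median log2 change was 0.11, against 0.01 over all genes. The 4 Elektra and 4 wild-type values overlapped in each of the 34, while 3.23% of all genes had groups that did not overlap. For 31 genes the 95% interval left out log2 changes beyond -1 and 1, and for 15 it left out those beyond -0.5 and 0.5, with an SE of 0.111 to 0.346. In the authors' deposited table the smallest p-values of the 34 were 0.0713 for Ect2 and 0.0873 for Ccna2.

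The count of higher genes depended most on Elektra replicate 4. Without Elektra replicate 4 it was 18 of 34 with a median log2 change of 0.0076, and without wild type replicate 1 it was 23 with a median of 0.05. Without Elektra replicate 2 it was 27 with a median of 0.14. Without Elektra replicates 2 and 3 and wild type replicate 4 together it was 29 with a median of 0.21. Elektra replicates 2 and 3 had the lowest mean levels of the 34 genes in their group, at 3.65 and 3.78. Wild type replicate 4, at 3.89, lay above the wild-type mean of 3.77. Leaving out these arrays raises the mean difference by the choice of arrays, so this setting is no check of the direction.

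**Figure D1:**
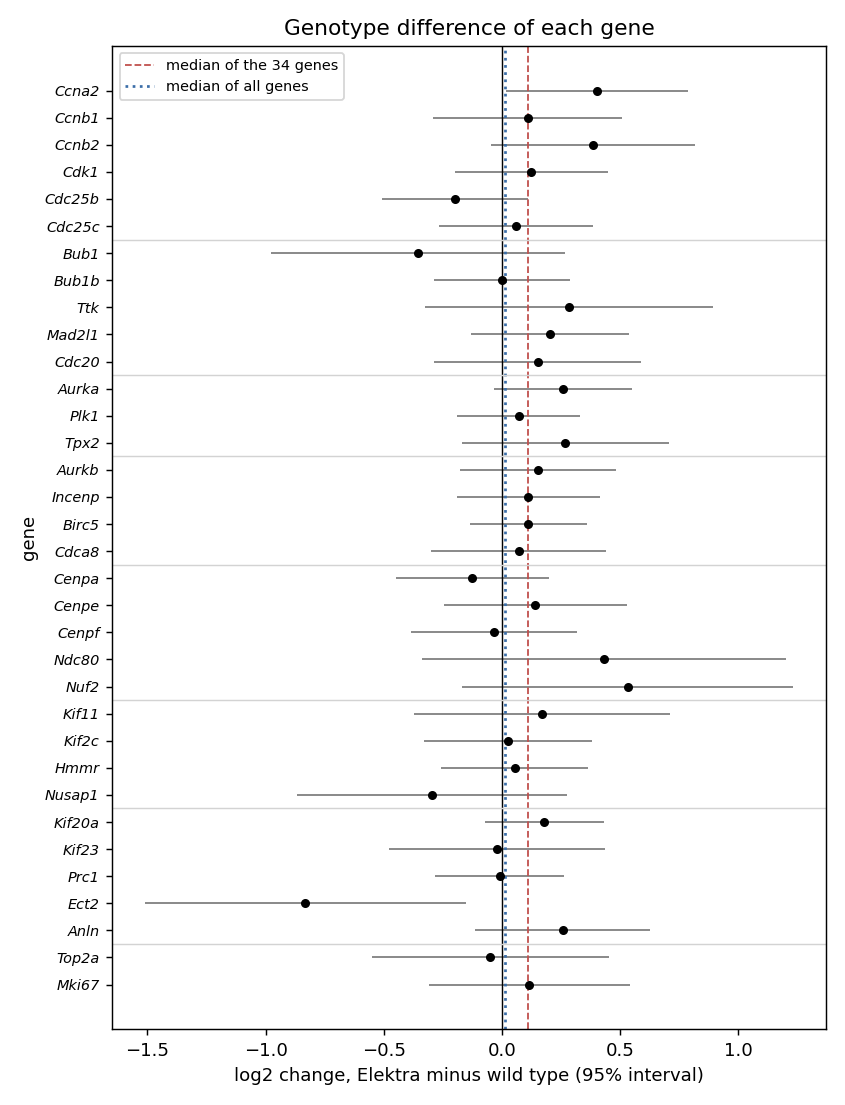
Log2 change of each of the 34 genes (x axis, Elektra minus wild type, from limma on 4 arrays per genotype), grouped by role from cyclins at the top to chromosome structure at the bottom. Points are estimates and bars are 95% intervals. Most points lie close to the dashed median of 0.11, only the intervals of Ccna2 and Ect2 leave out 0, and Ect2 stands far left at -0.83.

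The spread between arrays was ordered across the genes. Elektra replicate 4 held the highest of the 8 values for 19 of the 34 genes, against 13.5% of all genes, and lay above the gene's own median over the 8 arrays for 32. Wild type replicate 1 held the lowest value for 11 genes, wild type replicate 3 for 8 and Elektra replicate 2 for 7. Over all genes these arrays held the lowest value for 13.5%, 10.5% and 20.1%. Among genes at or above the median level, where all 34 lie, the shares were 14.3%, 8.88% and 31.7%. The mean level of the 34 genes was 3.83, 3.65, 3.78 and 4.15 in Elektra replicates 1 to 4, against 3.56, 3.91, 3.73 and 3.89 in wild type replicates 1 to 4. The genotypes overlapped, at 3.86 ± 0.21 in Elektra, against 3.77 ± 0.16 in wild type (SD over 4 arrays each), a difference of 0.08 that is smaller than either SD. The deviations of 2 genes from their group means correlated at a median of 0.38 over all pairs of the 34. The 34 genes ranged by a median of 0.794 over the 8 arrays, against 0.682 for genes at or above the median level.

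Markers of other marrow cells are given beside that order. Of the 10 granulocyte-monocyte progenitor markers 8 had a higher mean in Elektra (median log2 change 0.22), and 0 passed the adjusted test. Their mean level was 2.89, 2.68, 3.07 and 2.50 in Elektra replicates 1 to 4, against 2.50, 3.05, 2.50 and 2.55 in wild type. The genotypes overlapped, and the arrays highest and lowest in mitotic genes both had 2.50. The 9 neutrophil markers were at 3.49 in Elektra replicate 4 and at 3.97 in wild type replicate 2, with 2.10 to 3.05 in the other arrays. The 11 erythroid markers lay between 3.24 and 3.90 in Elektra and between 3.40 and 3.73 in wild type. Of the 8 T and NK cell markers 5 had a higher mean in Elektra and 3 a lower one (median log2 change 0.14). Of these markers 0 passed the adjusted test, and 0 had groups without overlap. Their mean level was 2.07 to 2.18 in the Elektra arrays and, lower, 1.97 to 2.05 in the wild-type arrays. The list means thus did not overlap between genotypes, a difference that was not tested. These levels are close to the array medians of 2.02 to 2.13, so the markers were dim in both genotypes. Of the 10 long-term stem cell markers 3 had a higher mean in Elektra (median log2 change -0.14). This was so for 6 of 8 mast cell and basophil markers and 3 of 8 megakaryocyte and platelet markers. It was so for 5 of 11 B and plasma cell markers and 4 of 8 macrophage markers. None of these passed the adjusted test, and groups did not overlap in 1 megakaryocyte and platelet marker, against 3.23% of all genes. The part of all these cells in the mitotic values was not tested.

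**Figure D2:**
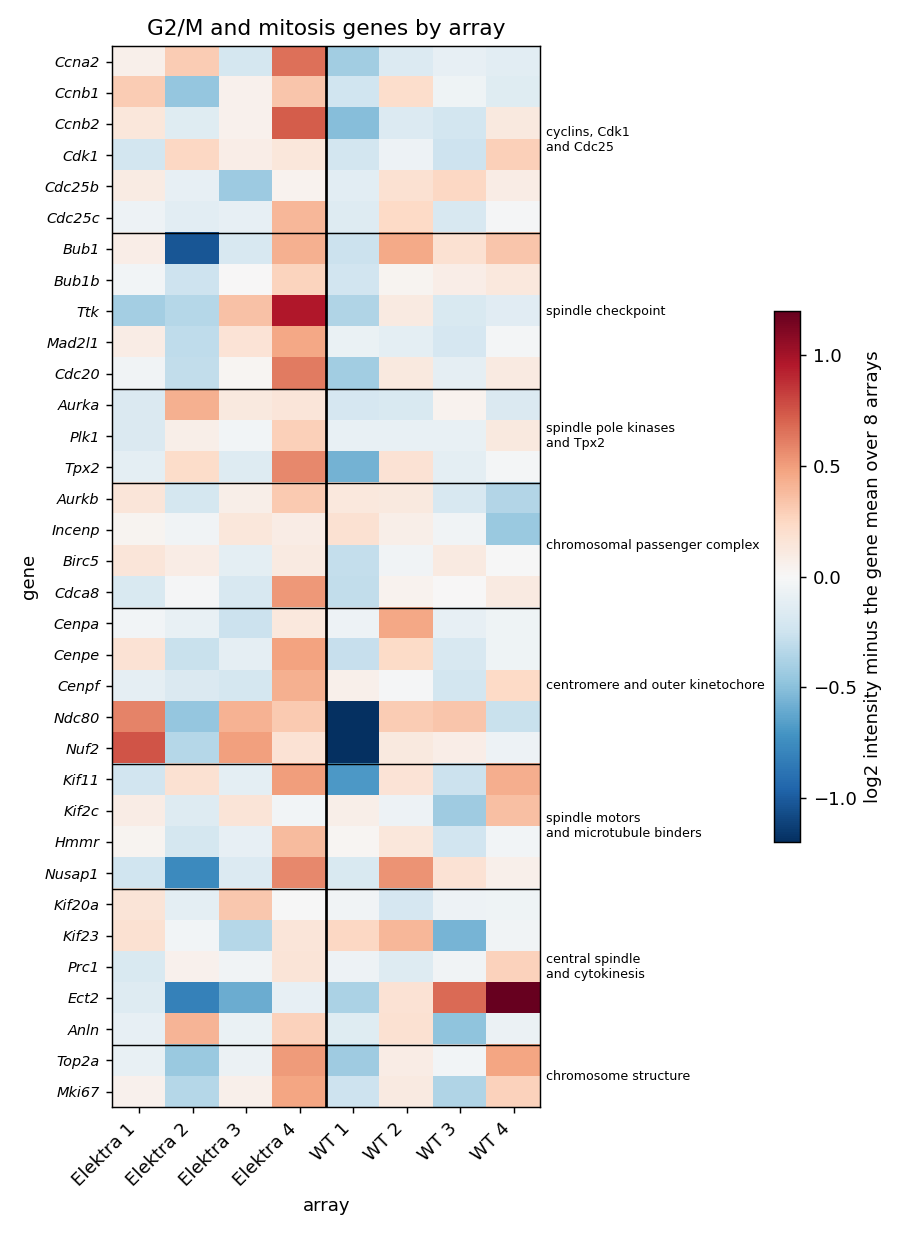
Log2 intensity of each of the 34 genes (rows, grouped by role) in each of the 8 arrays (columns, Elektra left of the line and wild type right), shown as the difference from the gene's mean over the 8 arrays. Red is above and blue below the mean. Elektra replicate 4 is red for nearly all genes, wild type replicate 1 is mostly blue with Ndc80 and Nuf2 darkest, and Ect2 is darkest red in wild type replicate 4.

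The cyclins, Cdk1 and the Cdc25 phosphatases open the programme, and 5 of these 6 genes had a higher mean in Elektra, none past the test. Ccna2 encodes cyclin A2, which acts in S phase and G2. Its level was 4.68, 4.92, 4.41 and 5.28 in Elektra replicates 1 to 4, against 4.20, 4.46, 4.52 and 4.50 in wild type. Elektra replicate 3 fell inside the wild-type range and the other Elektra values lay above it, with a log2 change of 0.40 (SE 0.17, limma adjusted p = 0.884) that was 0.25 without Elektra replicate 4. Ccnb2, cyclin B2, was 5.36, 5.07, 5.27 and 5.94 in Elektra, against 4.71, 5.05, 4.99 and 5.33 in wild type. The groups overlapped, Elektra replicate 4 being highest, and the log2 change of 0.39 (SE 0.19, adjusted p = 0.884) was 0.21 without that array. Cyclin B1, from Ccnb1, was 2.68 ± 0.37 in Elektra, against 2.57 ± 0.19 in wild type. Cdk1, the kinase that both B cyclins activate, was 5.02 ± 0.20 in Elektra, against 4.90 ± 0.24 in wild type. Of the phosphatases that remove inhibitory phosphates from Cdk1, Cdc25b was 2.24 ± 0.24 in Elektra, against 2.44 ± 0.16 in wild type, and Cdc25c was 2.14 ± 0.25 in Elektra, against 2.08 ± 0.19 in wild type. Cdc25c was dim, at percentile 50.1 of all genes, close to the array medians. Cdc25b was thus the one gene of the 6 with a lower mean in Elektra, by less than 1 SD of the Elektra arrays.

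The spindle checkpoint delays anaphase until every kinetochore is attached, and 4 of its 5 genes had a higher mean in Elektra. Mad2l1 encodes Mad2, the checkpoint protein that captures Cdc20. It was 5.45, 5.05, 5.52 and 5.83 in Elektra, against 5.29, 5.25, 5.16 and 5.34 in wild type. Elektra replicate 2 was below all wild-type arrays and the other Elektra arrays were above them (log2 change 0.20, SE 0.15, adjusted p = 0.896), and the change was 0.083 without Elektra replicate 4. Bub1, a checkpoint kinase at the kinetochore, was 2.77, 1.66, 2.50 and 3.11 in Elektra, against 2.43, 3.14, 2.87 and 3.02 in wild type. Its log2 change of -0.35 (SE 0.28, adjusted p = 0.896) was -0.0727 without Elektra replicate 2, the lowest array. Bub1b, which encodes BubR1, had nearly the same mean in both genotypes, at 3.25 ± 0.21 in Elektra, against 3.25 ± 0.16 in wild type. Ttk, the Mps1 kinase, spread more in Elektra, from 2.87 to 4.24, than in wild type, from 2.91 to 3.39. Cdc20, the activator of the anaphase-promoting complex, was 5.30 ± 0.39 in Elektra, against 5.14 ± 0.25 in wild type.

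The 3 spindle pole genes all had a higher mean in Elektra, none past the test. Aurka, the Aurora kinase of centrosome maturation, was 2.78, 3.38, 3.07 and 3.10 in Elektra, against 2.75, 2.77, 2.99 and 2.77 in wild type. Elektra replicate 1 lay among the wild-type arrays and the other Elektra arrays lay above them (log2 change 0.26, SE 0.13, adjusted p = 0.884). Tpx2, which activates Aurora A on spindle microtubules, was 3.94, 4.28, 3.90 and 4.63 in Elektra, against 3.48, 4.23, 3.94 and 4.03 in wild type. These groups overlapped widely, and the log2 change was 0.27 (SE 0.20, adjusted p = 0.896), or 0.12 without either Elektra replicate 4 or wild type replicate 1. Plk1, the Polo kinase that promotes mitotic entry, was 4.79 ± 0.19 in Elektra, against 4.72 ± 0.10 in wild type.

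The chromosomal passenger complex corrects faulty attachments and directs cytokinesis, and its 4 subunit genes all had a slightly higher mean in Elektra, none past the test. Aurkb, its kinase, was 4.75, 4.39, 4.67 and 4.91 in Elektra, against 4.73, 4.72, 4.41 and 4.25 in wild type. Birc5, which encodes survivin, was 3.32, 3.27, 3.06 and 3.28 in Elektra, against 2.89, 3.14, 3.28 and 3.17 in wild type. In both genes the groups overlapped, with log2 changes of 0.15 (SE 0.15) and 0.11 (SE 0.11) and an adjusted p of 0.909. Incenp, the scaffold, was 4.23 ± 0.08 in Elektra, against 4.12 ± 0.27 in wild type, wild type replicate 4 being lowest at 3.74. Cdca8, which encodes borealin, was 3.88 ± 0.34 in Elektra, against 3.81 ± 0.18 in wild type.

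Among centromere and kinetochore genes, Ndc80 and Nuf2 had the widest spread over the arrays. Their proteins pair along their length in the complex that binds microtubules at the kinetochore. Nuf2 was 3.81, 2.71, 3.55 and 3.23 in Elektra, against 1.86, 3.18, 3.14 and 3.00 in wild type. Ndc80 was 3.77, 2.72, 3.60 and 3.50 in Elektra, against 1.95, 3.49, 3.51 and 2.92 in wild type. Both were lowest in wild type replicate 1, next lowest in Elektra replicate 2 and highest in Elektra replicate 1. The log2 change was 0.53 for Nuf2 (SE 0.31, adjusted p = 0.888) and 0.43 for Ndc80 (SE 0.35, adjusted p = 0.896), or 0.22 and 0.0929 without wild type replicate 1. Cenpa, the histone variant of centromeres, was 4.82 ± 0.16 in Elektra, against 4.95 ± 0.27 in wild type. The kinetochore motor gene Cenpe was 2.88 ± 0.33 in Elektra, against 2.74 ± 0.22 in wild type, and Cenpf, a large kinetochore protein gene, was 2.68 ± 0.30 in Elektra, against 2.71 ± 0.19 in wild type.

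The pair Ndc80 and Nuf2 was set beside 5 other pairs of genes whose proteins bind each other, over the 8 arrays. These pairs were chosen with the values known, and all genes of an array share its scale. The permutation p-values are against no correlation at all. Deviations from group means already correlated at a median of 0.38 over all pairs of the mitotic genes. The p-values therefore cannot tell whether partners go together more than other mitotic genes do, which was not tested. For Ndc80 and Nuf2 Pearson's r was 0.96 (exact permutation p = 0.000198, adjusted over the 6 pairs 0.00119) and Spearman's rho 0.93 (exact permutation p = 0.00223, adjusted 0.0134). Without the 2 arrays farthest from the Ndc80 median, Elektra replicate 2 and wild type replicate 1, r was 0.79. In wild type replicate 1 Ndc80 at 1.95 and Nuf2 at 1.86 lay below that array's median of 2.03. Aurkb and Incenp had an r of 0.80 (exact permutation p = 0.00873, adjusted 0.0262) and a rho of 0.68 (p = 0.0717, adjusted 0.215), and an r of 0.57 without Elektra replicate 2 and wild type replicate 4. Mad2l1 and Cdc20 had an r of 0.79 (exact permutation p = 0.0400, adjusted 0.0801) and a rho of 0.57 (p = 0.151, adjusted 0.302), and an r of 0.22 without Elektra replicates 2 and 4, on which the relation rests. Ccnb1 and Cdk1 had an r of -0.30 (exact permutation p = 0.460, adjusted 0.460) and a rho of -0.12 (p = 0.793, adjusted 0.793). Birc5 with Cdca8 (r 0.52, rho 0.38) and Aurka with Tpx2 (r 0.51, rho 0.50) did not pass, at exact permutation p-values of 0.136 and 0.210 for r and 0.360 and 0.216 for rho. The 2 other subunits of the Ndc80 complex, looked at for that reason, did not share the low value of wild type replicate 1. Spc24 was 4.10 in that array, within 3.79 to 4.77 in Elektra and 3.89 to 4.43 in wild type, and Spc25 was 2.65, within 2.34 to 3.20 and 2.53 to 2.89.

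**Figure D3:**
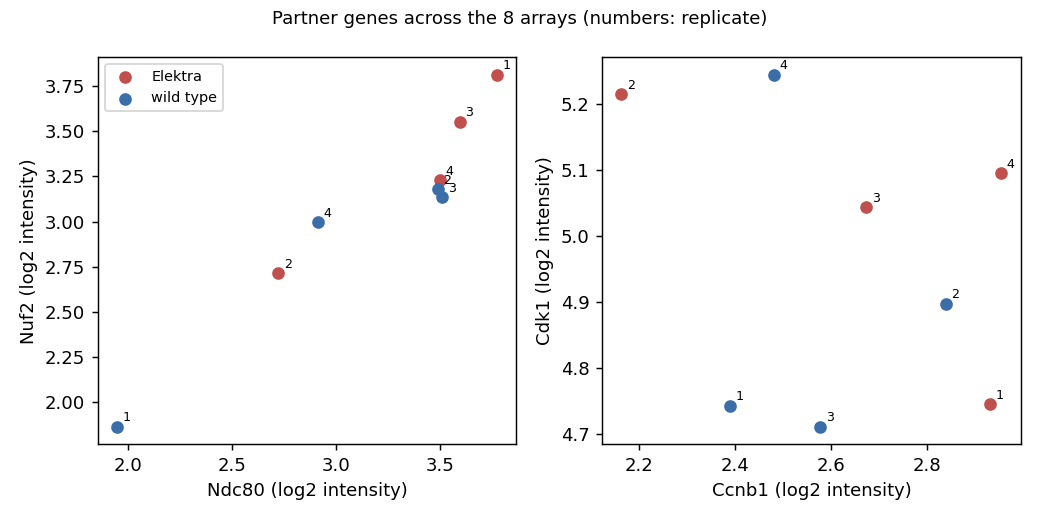
Log2 intensity of Ndc80 (x) against Nuf2 (y) on the left, and of Ccnb1 (x) against Cdk1 (y) on the right, 1 point per array, red for Elektra and blue for wild type, numbered by replicate. The Ndc80 and Nuf2 points follow 1 line with wild type replicate 1 at its low end (r 0.96), while the Ccnb1 and Cdk1 points scatter (r -0.30).

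Motor and microtubule-binding genes of the spindle lay on both sides of 0. Nusap1, which bundles spindle microtubules, was 4.71, 4.18, 4.79 and 5.53 in Elektra, against 4.76, 5.49, 5.12 and 5.01 in wild type. Elektra replicate 4 was the highest of all arrays, Elektra replicate 3 lay inside the wild-type range and Elektra replicates 1 and 2 lay below it. The log2 change of -0.29 (SE 0.26, adjusted p = 0.901) was -0.54 without replicate 4. Kif11, the kinesin that pushes spindle poles apart, was 4.18, 4.60, 4.30 and 4.91 in Elektra, against 3.73, 4.58, 4.16 and 4.85 in wild type, with full overlap above wild type replicate 1. Kif2c, a microtubule depolymerase at centromeres, was 2.76 ± 0.14 in Elektra, against 2.73 ± 0.33 in wild type. Hmmr, a spindle protein gene also known as the hyaluronan receptor RHAMM, was 2.47 ± 0.26 in Elektra, against 2.41 ± 0.15 in wild type.

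The genes of the central spindle and cytokinesis held the widest difference of the 34. Ect2 encodes the exchange factor that activates RhoA to place the cleavage furrow. It was 4.49, 3.84, 4.05 and 4.55 in Elektra, against 4.27, 4.82, 5.33 and 5.84 in wild type. Wild type replicate 1 fell inside the Elektra range and the other wild-type arrays lay above it. The log2 change was -0.83 (SE 0.31, 95% interval -1.51 to -0.15), the adjusted p was 0.884, and leaving out 1 array at a time gave -1.10 at the lowest, with wild type replicate 1 left out, and -0.57 at the highest, with wild type replicate 4 left out. Elektra replicate 4, highest for 19 of the 34 genes, was below 3 of the 4 wild-type arrays in Ect2. Racgap1, which recruits Ect2 to the central spindle and was looked at for that reason, was 4.74 ± 0.05 in Elektra, against 4.67 ± 0.27 in wild type. Kif20a, a kinesin that carries the passenger complex to the central spindle, was 3.69, 3.42, 3.86 and 3.53 in Elektra, against 3.49, 3.33, 3.47 and 3.49 in wild type. Elektra replicate 2 lay within the wild-type range and the other Elektra arrays above it (log2 change 0.18, SE 0.11, adjusted p = 0.888). Anln, the furrow scaffold anillin, was 2.80 ± 0.25 in Elektra, against 2.55 ± 0.28 in wild type. Kif23, the motor subunit of centralspindlin, was 4.22 ± 0.24 in Elektra, against 4.24 ± 0.42 in wild type, and Prc1, which crosslinks the microtubules of the midzone, was 3.22 ± 0.15 in Elektra, against 3.23 ± 0.19 in wild type.

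**Figure D4:**
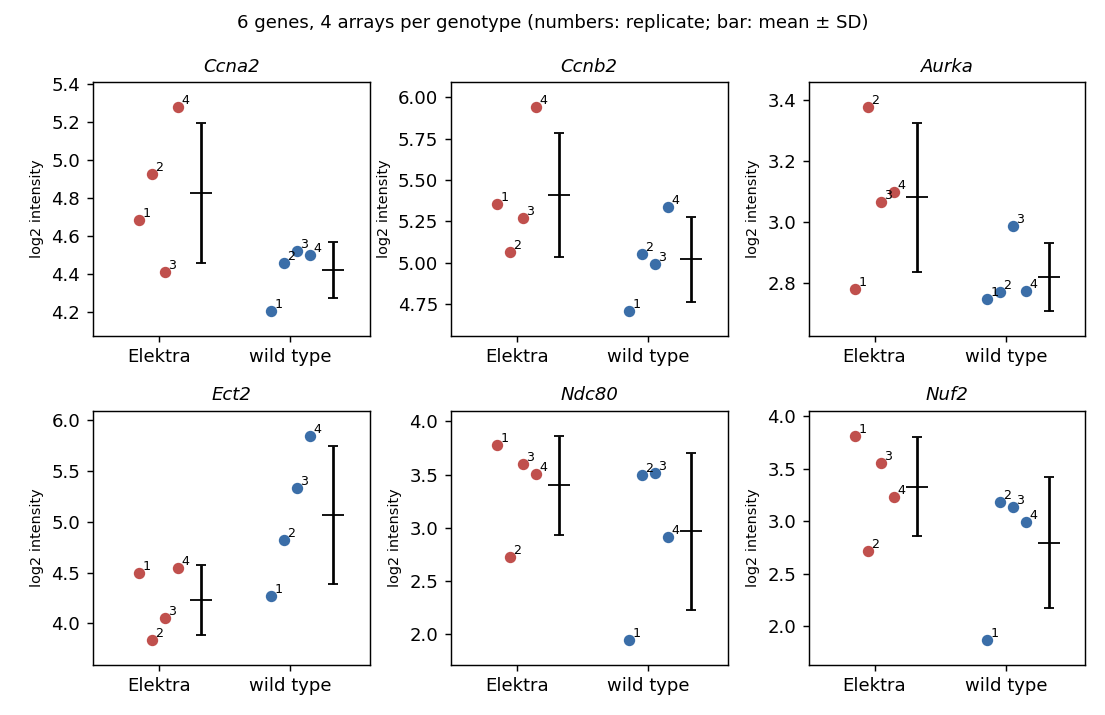
Log2 intensity of 6 genes in each array (points numbered by replicate, Elektra red on the left and wild type blue on the right), with mean and SD beside each group. The groups overlap in all 6, Ect2 spreads from 3.84 to 5.84, and Ndc80 and Nuf2 share their low point in wild type replicate 1.

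Of the genes of chromosome structure, Mki67, which encodes the proliferation marker Ki-67, was 6.33, 5.94, 6.35 and 6.76 in Elektra, against 6.04, 6.40, 5.92 and 6.56 in wild type. Top2a, the topoisomerase that untangles sister chromatids, was 4.58, 4.22, 4.61 and 5.18 in Elektra, against 4.25, 4.76, 4.64 and 5.14 in wild type. For both genes the groups overlapped over most of their range, replicate 4 being highest in each genotype. The log2 changes were 0.12 (SE 0.19, 95% interval -0.31 to 0.54) and -0.05 (SE 0.22, interval -0.55 to 0.45).

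Other genes of cell division leaned in different directions, and 0 of them passed the adjusted test in either direction. Of 37 further spindle and cytokinesis genes 27 had a higher mean in Elektra (median log2 change 0.05, or -0.026 without Elektra replicate 4 and -0.0038 without wild type replicate 1). The spindle pole protein gene Dlgap5 had no overlap, at 3.45 ± 0.10 in Elektra, against 3.12 ± 0.20 in wild type, and the minus-end kinesin gene Kifc1 was 4.11 ± 0.18 in Elektra, against 3.72 ± 0.27 in wild type. Ckap5, which encodes a microtubule polymerase, lay the other way at 5.15 ± 0.11 in Elektra, against 5.32 ± 0.15 in wild type. Of 34 further kinetochore genes only 8 had a higher mean in Elektra (median -0.14). Cenpn, a reader of centromeric nucleosomes, was at 3.16 ± 0.39 in the Elektra arrays and 3.85 ± 0.27 in the wild-type arrays, without overlap. Its fellow inner kinetochore gene Cenpq was 2.82 ± 0.17 in Elektra, against 3.33 ± 0.41 in wild type, and Nsl1 of the Mis12 complex was 1.94 ± 0.23 in Elektra, against 2.50 ± 0.56 in wild type. Nsl1 was dim, at percentile 52.6 of all genes. Groups did not overlap in 1 of the 37 and 1 of the 34 genes, against 3.23% of all genes. These lists are read beside the 45.7% of brighter genes with a higher mean in Elektra, and the difference between the lists was not tested.

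Cohesin, condensin and separase genes had a higher mean in Elektra for 7 of 20 (median -0.06). Leaving out Elektra replicate 2 gave a median of 0.032, and leaving out Elektra replicate 4 gave -0.13. It was -0.0025 when wild type replicate 2 was omitted and -0.0019 when replicate 4 of that genotype was. The cohesin loader gene Nipbl was 6.14 ± 0.27 in Elektra, against 6.51 ± 0.12 in wild type, the cohesin subunit gene Stag2 was 4.83 ± 0.24 in Elektra, against 5.12 ± 0.13 in wild type, and the condensin II gene Ncaph2 was 4.02 ± 0.16 in Elektra, against 4.34 ± 0.30 in wild type. Of 16 measured genes of the anaphase-promoting complex and its partners 2 had a higher mean in Elektra (median -0.11, or -0.035 without Elektra replicate 2). Anapc15 was 2.68 ± 0.35 in Elektra, against 3.02 ± 0.24 in wild type, its lowest array being Elektra replicate 2 at 2.15. The subunit genes Anapc10 (4.40 ± 0.19 in Elektra, against 4.60 ± 0.21 in wild type) and Anapc1 (5.55 ± 0.24 in Elektra, against 5.71 ± 0.14 in wild type) were also lower in Elektra on average.

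Transcription regulators of the programme had a higher mean in Elektra for 6 of 16 (median -0.08, or 0.017 without Elektra replicate 2 and -0.13 without Elektra replicate 4). Rbl2, which encodes the pocket protein p130 of the repressing complex, was 6.41 ± 0.26 in Elektra, against 6.78 ± 0.12 in wild type. Nfya, a subunit of the CCAAT-binding factor NF-Y, was 6.78 ± 0.16 in Elektra, against 7.04 ± 0.09 in wild type with no overlap. E2f5 was 3.94 ± 0.09 in Elektra, against 4.16 ± 0.10 in wild type, also with no overlap. In this list 2 of 16 genes had no overlap, against 3.23% of all genes. The activators Foxm1 (4.01 ± 0.13 in Elektra, against 4.07 ± 0.19 in wild type) and Mybl2 (4.16 ± 0.24 in Elektra, against 4.05 ± 0.30 in wild type), looked at for their role, overlapped between genotypes. Among brakes on mitotic entry 2 of 11 had a higher mean in Elektra (median -0.21), with Chek2, a DNA damage kinase gene, at 2.64 ± 0.21 in Elektra, against 3.05 ± 0.36 in wild type, Atm at 4.67 ± 0.11 in Elektra, against 4.89 ± 0.24 in wild type, and Ccng2 at 3.92 ± 0.39 in Elektra, against 4.20 ± 0.32 in wild type. That median was -0.0336 with wild type replicate 2 left out and -0.0382 with Elektra replicate 2 left out.

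The G1/S and DNA replication genes, the neighbouring step of the cycle, had a higher mean in Elektra for 13 of 35 (median log2 change -0.05). That median took the other sign without Elektra replicate 2, at 0.11, and was -0.16 without Elektra replicate 3 and -0.14 without Elektra replicate 4. Their mean level was 4.69, 4.16, 5.01 and 4.96 in Elektra replicates 1 to 4, against 4.55, 4.76, 4.77 and 4.89 in wild type. Elektra replicate 2 was lowest for this list and Elektra replicate 3 highest. For the 34 mitotic genes wild type replicate 1 was lowest and Elektra replicate 4 highest. These places were not particular to the 34. Elektra replicate 4 was also highest for the further spindle (3.83), kinetochore (3.69), cohesin (4.86), anaphase-promoting complex (5.56) and regulator (5.19) lists. Wild type replicate 4 came close in the kinetochore list, at 3.67. For the brakes on mitotic entry Elektra replicate 4 was lowest (4.26). Wild type replicate 1 was also lowest for the further spindle list (3.40). The low place of Elektra replicate 2 was not particular to the G1/S genes. It was also lowest over genes at or above the median level, at 3.98, against 4.11 to 4.14 in the other arrays. The same held for the further kinetochore (3.19), cohesin (4.38), anaphase-promoting complex (5.16) and regulator (4.81) lists. Cdc6, which loads the replicative helicase, was 4.28 ± 0.35 in the Elektra arrays and 3.76 ± 0.11 in the wild-type arrays, without overlap. It was 1 of the 35 genes without overlap, against 3.23% of all genes. Fen1, the flap endonuclease of lagging strand synthesis, was 2.81 ± 0.23 in Elektra, against 3.14 ± 0.16 in wild type, and Gins3 was 2.95 ± 0.25 in Elektra, against 3.27 ± 0.10 in wild type.

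**Figure D5:**
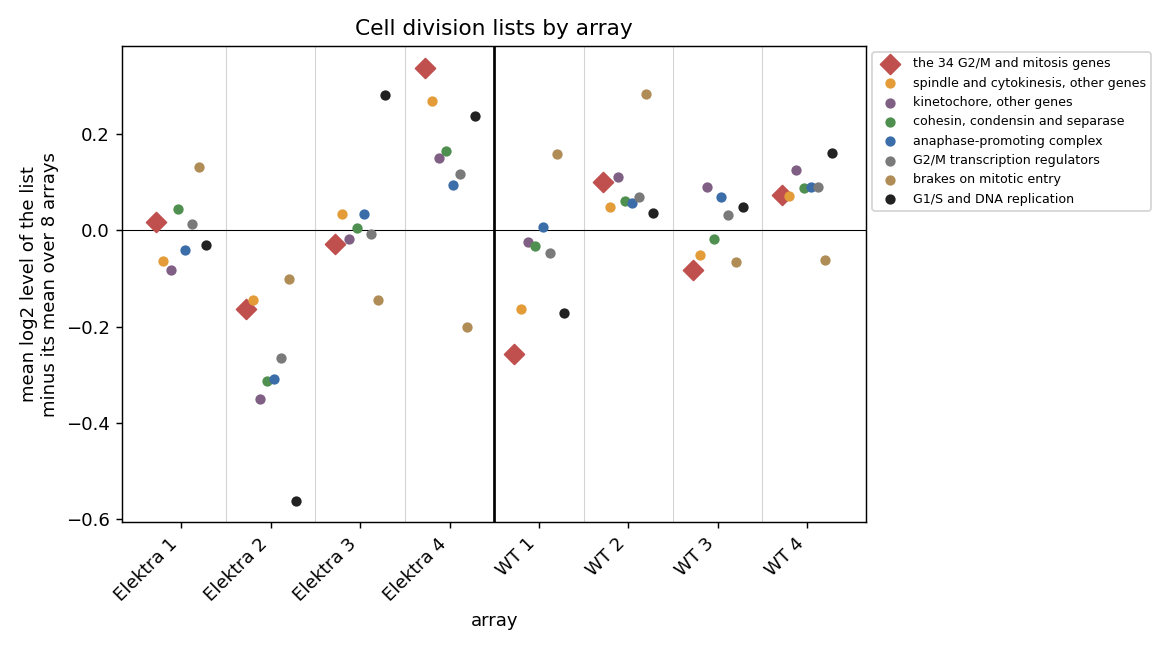
Mean log2 level of the 34 G2/M and mitosis genes (red diamonds) and of 7 other cell division lists (dots) in each array, minus the list's own mean over the 8 arrays, Elektra left of the thick line and wild type right. The mitotic genes are highest in Elektra replicate 4 and lowest in wild type replicate 1. Elektra replicate 4 is also highest for the further spindle, kinetochore, cohesin, anaphase-promoting complex and regulator lists. The G1/S genes are lowest in Elektra replicate 2, as are the kinetochore, cohesin, anaphase-promoting complex and regulator lists.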

How the data were processed

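Marrow of 4 Elektra and 4 wild-type samples was enriched for c-Kit, sorted with dead cells excluded, and RNA (100 to 200 pg) went through 12 PCR cycles and biotin labelling, per the labels' protocols. Values are log2 intensities, as the authors deposited them. The submitters' processing notes name RMA and version 1.4 of Affymetrix Expression Console. Each log ratio and p-value in the authors' deposited table compares Elektra with wild type, and the p-values equal those of a pooled-variance test to within 2.88e-12. For the arrays' annotation, the sources used here state no genome build.

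The annotated table (34390 probe sets, 31872 with 1 symbol) was used, with the brightest probe set per gene and no filter on dim genes. The series table of the same arrays differed by at most 0.291 and served as an alternative. Elektra was compared with wild type over all 30918 genes with limma 3.58.1 (lmFit, then eBayes; R 4.3.3). Tests were two-sided, p-values were adjusted by the Benjamini-Hochberg method, and the threshold was 0.05. The fit was tested on simulated data. The labels call the arrays of a group biological replicates of pooled marrow, and the tests set each difference against the spread between these samples. The number of animals per group is not settled, so SEs, intervals and p-values need not reflect the spread between animals. The number of arrays limits the precision. The members, lists and tests were chosen with earlier results of these data known. Values by array are given for the 2 genes with the smallest p of each role, and 3 genes are named from each other list together with any whose groups do not overlap. Spc24, Spc25, Racgap1, Foxm1 and Mybl2 were added later. Ube2s was not matched in the table. Replicate numbers are shared between the groups, but the labels do not say that they pair the samples, so they were not taken as pairs. The deviations of same-numbered arrays from their group means correlated at 0.135, 0.011, 0.134 and 0.055. The highest correlations with another number were 0.12, 0.085, 0.142 and 0.038. These values do not settle whether the samples pair. Alternatives were another input table, 2 other scalings, a filter at the 40th percentile, the mean of probe sets, a trended and robust prior, a pooled-variance test, weights for arrays, a block for the replicate number, and leaving out arrays.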

Additional observations from a re-analysis of the deposited data

Results flagged for a closer look

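Among 120 groups of 4 arrays looked at, 68 of them of the 34 mitotic genes, 11 held an array whose gap to the nearest other array was above Dixon's critical share of the group's range, where chance flags about 1 group in 20. Of these 7 were of the 34 genes. Cdc25c in Elektra replicate 4 was 2.51, against 1.98 to 2.05 in the other Elektra arrays, and Cenpf in the same array was 3.12, against 2.49 to 2.59. Aurka in wild type replicate 3 was 2.99, against 2.75 to 2.77 in the other wild-type arrays. Plk1 in wild type replicate 4 was 4.88, against 4.66 to 4.67. Cenpa in wild type replicate 2 was 5.35, against 4.78 to 4.83, and Kif20a in the same array was 3.33, against 3.47 to 3.49. Nuf2 in wild type replicate 1 was 1.86, against 3.00 to 3.18. Of the other genes, Kifc1 in Elektra replicate 1 was 3.84 (4.17 to 4.22 in the other Elektra arrays), Anapc15 in Elektra replicate 2 was 2.15 (2.84 to 2.89), Racgap1 in wild type replicate 3 was 4.27 (4.79 to 4.81 in the other wild-type arrays) and Mybl2 in wild type replicate 1 was 3.61 (4.17 to 4.25).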

How the results depend on the processing

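No gene, and so none of the 34, passed an adjusted p of 0.05 in limma under any alternative. The number of genes at an unadjusted p under 0.05 was 1062 with dim genes left out and 1411 to 2115 on leaving out 1 array. Of the 34 genes, the number at an unadjusted p under 0.05 was 1 with median centring (5.62% of all genes), 5 with quantile normalization (5.53%), 4 with the replicate block (6.08%) and 0 in the pooled-variance test (5.08%), and 0 (without wild type replicate 3) to 4 (without Elektra replicate 2, where 5.08% of all genes had it) on leaving out 1 array. Groups did not overlap in 1 of the 34 with quantile normalization (3.31% of all genes), 2 without Elektra replicate 3 and wild type replicate 4 (10.6%), 7 with Elektra replicate 2 left out as well (20%), and 0 to 3 on leaving out 1 array (5.85% to 7.25%). The number with a higher mean in Elektra ran from 18 to 27 and the median log2 change from 0.0076 to 0.15 on leaving out 1 array. For the replicate block, the arrays share a replicate number that is not said to pair them. Same-numbered arrays correlated best with their own number for replicates 1 and 4 and not for 2 and 3. These log2 changes had the other sign under an alternative. With array weights the change was 0.0109 for Top2a. With median centring the change was -0.0395 for Bub1b, -0.0128 for Kif2c and -0.0197 for Slfn2. With quantile normalization the change was 0.0412 for Kif23, 0.0269 for Prc1, 0.0106 for Top2a and -0.0187 for Slfn2. Without the same 2 arrays the change was -0.0425 for Incenp, 0.106 for Cenpf, 0.0716 for Kif23, 0.0951 for Prc1 and 0.115 for Top2a. Without the 3 arrays the change was 0.127 for Bub1, -0.00835 for Incenp, 0.218 for Cenpf, 0.138 for Kif23, 0.0727 for Prc1, 0.335 for Top2a and 0.0363 for Anapc1. Leaving out 1 array at a time gave -0.0633 to 0.0825 for Prc1, -0.18 to 0.042 for Cenpf, -0.226 to 0.101 for Top2a, -0.0891 to 0.0827 for Bub1b and -0.111 to 0.154 for Kif2c. It gave -0.212 to 0.109 for Kif23, -0.062 to 0.151 for Cdc25c, -0.0301 to 0.278 for Cdc20, -0.0114 to 0.142 for Plk1 and -0.0917 to 0.147 for Cdca8. The ranges were -0.063 to 0.134 for Hmmr, -0.0202 to 0.251 for Mki67, -0.0227 to 0.265 for Spc25, -0.113 to 0.138 for Slfn2 and -0.0306 to 0.345 for Kif11. They were -0.0386 to 0.197 for Mybl2, -0.187 to 0.0108 for Cenpa, -0.0648 to 0.115 for Racgap1 and -0.0148 to 0.192 for Incenp. The cause of these changes was not tested.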
